A study of Mus musculus with 6 samples.

Results

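Genes that write, erase or scaffold methyl groups on histone lysines were read out of expression arrays of whole bone marrow from 6 diseased mice. The list of 47 such genes was chosen by name, with earlier results of these data known. Of these, 45 had a probe set that the array annotation assigns to 1 gene symbol, out of 19938 genes measured in this way. Suv39h1 and Ash1l were not analysed here. Where a gene had several such probe sets, the brightest by its mean over the 6 arrays was used. The mice were irradiated CD45.1+ recipients of CD45.2+ donor LSK cells, a marrow fraction rich in haematopoietic stem and progenitor cells, and marrow was taken at the onset of disease. In 3 mice the donor cells carried Meis1 and HoxA9AA-GFP (HoxA9AA/Meis1). In the other 3 they carried Meis1 and the wild-type form, HoxA9wt-GFP (HoxA9wt/Meis1). Both groups therefore share introduced Meis1, GFP, irradiation and disease, and no mouse without disease was used here. The labels state neither the strain, age and sex of the mice nor how much of the marrow came from donor cells at harvest. Each array is 1 mouse, so the number of arrays limits the precision of every value.

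Histone lysine methylation marks the state of a gene. Methylation of histone H3 at lysine 4 (H3K4), lysine 36 (H3K36) and lysine 79 (H3K79) goes with transcribed genes, while methylation at lysine 9 (H3K9) and lysine 27 (H3K27) goes with silenced ones. SET domain enzymes and Dot1l add the methyl groups, and LSD1-type amine oxidases and JmjC domain enzymes remove them. In acute leukaemias with KMT2A fusions, the fusion protein with menin and DOT1L keeps HOXA9 and MEIS1 active, which is why this family is of interest in marrow with introduced HoxA9 and Meis1.

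Several of these enzymes or their partners (Kmt2a, Kmt2b, Kdm2a, Kdm2b) carry a CXXC domain that binds unmethylated CpG dinucleotides. The promoters of 3 members that the results below turn on are shown for their CpG content. They span 250 bases before to 50 bases after the transcription start, from RefSeq on GRCm38.p6. The Kdm5b promoter (chr1:134559928-134560227, plus strand), the Kmt2a promoter (chr9:44881240-44881539, minus strand) and the Jmjd1c promoter with the higher CpG count (chr10:67126838-67127137, plus strand) are written 5′ to 3′, and capitals mark CpG.
Kdm5b: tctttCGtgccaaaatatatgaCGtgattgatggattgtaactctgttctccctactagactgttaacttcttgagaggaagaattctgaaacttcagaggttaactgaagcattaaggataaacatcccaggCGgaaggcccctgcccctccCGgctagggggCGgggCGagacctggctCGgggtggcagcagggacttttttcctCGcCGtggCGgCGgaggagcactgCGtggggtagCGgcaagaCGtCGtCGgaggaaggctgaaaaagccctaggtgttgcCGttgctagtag
Kmt2a: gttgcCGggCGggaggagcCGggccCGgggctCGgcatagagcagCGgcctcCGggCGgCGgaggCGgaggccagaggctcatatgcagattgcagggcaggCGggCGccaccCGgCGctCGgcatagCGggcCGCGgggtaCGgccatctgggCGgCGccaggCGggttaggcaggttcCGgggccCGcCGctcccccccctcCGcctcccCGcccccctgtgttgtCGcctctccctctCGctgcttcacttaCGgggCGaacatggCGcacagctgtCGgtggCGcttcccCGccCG
Jmjd1c: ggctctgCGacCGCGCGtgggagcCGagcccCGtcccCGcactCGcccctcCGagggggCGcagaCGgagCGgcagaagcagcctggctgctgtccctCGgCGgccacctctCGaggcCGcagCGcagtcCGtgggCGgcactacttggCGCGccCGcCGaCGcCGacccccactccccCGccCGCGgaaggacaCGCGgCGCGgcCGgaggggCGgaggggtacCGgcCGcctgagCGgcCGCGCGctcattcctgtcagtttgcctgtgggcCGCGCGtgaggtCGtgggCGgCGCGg
Of the 3 printed promoters that of Kdm5b, with 17 CpG, was the poorest, against 36 in Kmt2a and 47 in Jmjd1c. The other Jmjd1c promoter, not printed, held 13 CpG, fewer than that of Kdm5b. Of the 45 members, 35 had 46 promoters in the RefSeq table. These held a median of 26.5 CpG (0 to 65). The median was 20 for promoters of genes whose mean value lay at or above the array median, and 7.0 for all 32851 promoters. Their median GC content was 63.3%, against 60.7% for the brighter genes and 52.7% for all. On both strands the joint Hox and Pbx letters TGATTTAT were found in 0 of the 46 member promoters and in 0.977% of all promoters. The Meis letters TGACAG were found in 9 of the 46, or 19.6%, and in 19.2% of all promoters. Some of the 46 are overlapping windows of the same gene, as for Men1 and Kdm2b. The counts here are therefore of promoters, and 1 site can be counted more than once. In the Jmjd1c promoter printed above a Meis match begins at base 5 after the start. No exact match to either was found in those of Kdm5b and Kmt2a. Only the exact letters were searched. Variants such as TGATTGAT, which stands in the Kdm5b promoter, were not counted. The NF-Y letters CCAAT stood in 43.5% of member promoters and 37.4% of all. For the E-box letters CACGTG these shares were 8.7% and 7.15%. For the CRE letters TGACGTCA they were 4.35% and 1.79%, and for the E2F letters GGCGGGAA 2.17% and 2.19%. The ETS letters CCGGAAGT were in 0 of the member promoters and in 3.89% of all. The E-box, CRE, E2F and ETS letters contain CG, and the member promoters hold more CpG than all promoters. Shares of these letters in promoters of the brighter genes were not counted, so the comparisons do not allow for CpG content.

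Values are log2, so that 1 unit equals a 2-fold change, and every difference is HoxA9AA/Meis1 minus HoxA9wt/Meis1. Levels of different genes are not compared, because probe sets differ in brightness. The medians of the arrays over all probe sets were 6.73 to 6.85, while 1027 olfactory receptor genes, which serve as a background level, had medians of 4.80 to 4.88. On every array, 44 of the 45 members lay more than 1 above that background, the exception being Kdm4d. The blood cell genes Ptprc, Spi1, Itgam and Cebpa passed the same mark on every array, as did all 13 monocyte and all 6 primary granule markers measured, so the marrow had the myeloid markers its label implies. Array similarity was uneven. HoxA9AA replicate 2 correlated with the HoxA9wt arrays at r = 0.989 to 0.991 across genes, while HoxA9AA replicates 1 and 3 did so at 0.958 to 0.970.

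A larger share of the family than of all genes stood apart between the groups, mostly towards higher values in HoxA9AA/Meis1, and no single member passed the test over all genes. The family was chosen with earlier results of these data known, so the shares below describe it and are no test of it. With limma, 0 of 45 members and 0 of 19938 genes (0.0% of all genes) had an adjusted p under 0.05, and the members' adjusted p ran from 0.731 to 1. An unadjusted p under 0.05 was found for 13 members, or 28.9%, against 6.74% of all genes and 10.6% of the 10624 genes at or above the array median. Of these 13 members 11 were higher, against 4.15% of all genes, and 2 lower, against 2.59%. The 3 values of one group all lay beyond the 3 of the other for 17 members, or 37.8%, against 11.4% of all genes and 14.7% of the brighter genes. Among these 17, 14 were higher (6.6% of all genes were) and 3 lower (4.8%) in HoxA9AA/Meis1, and for 7 of them the nearest mice of the groups were less than 0.05 apart. The median difference over members was 0.13, against 0.01 over all genes and 0.035 over the brighter genes. These differences were small, since 33 of the 45 were under 0.3 in size and 2, Kdm5b and Kdm7a, over 1. In whole marrow, fewer cells of a type and less RNA per cell cannot be told apart.

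The count of 13 depended on single arrays and on the model of the variance. It was 5 without HoxA9AA replicate 3 (with 5.33% of all genes), 4 without HoxA9wt replicate 1 (4.15%), 6 without HoxA9wt replicate 2 (4.02%) and 7 without HoxA9wt replicate 3 (3.05%). With the replicate number as a block it was 6 (5.6%), with a trend and robust variance 7 (5.91%) and without moderation 8 (4.8%). It was 10 without HoxA9AA replicate 1 (6.56%) and 15 without HoxA9AA replicate 2 (14.1%). In the remaining settings it was 10 to 13, with 6.68% to 8.39% of the genes tested.

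**Figure D1:**
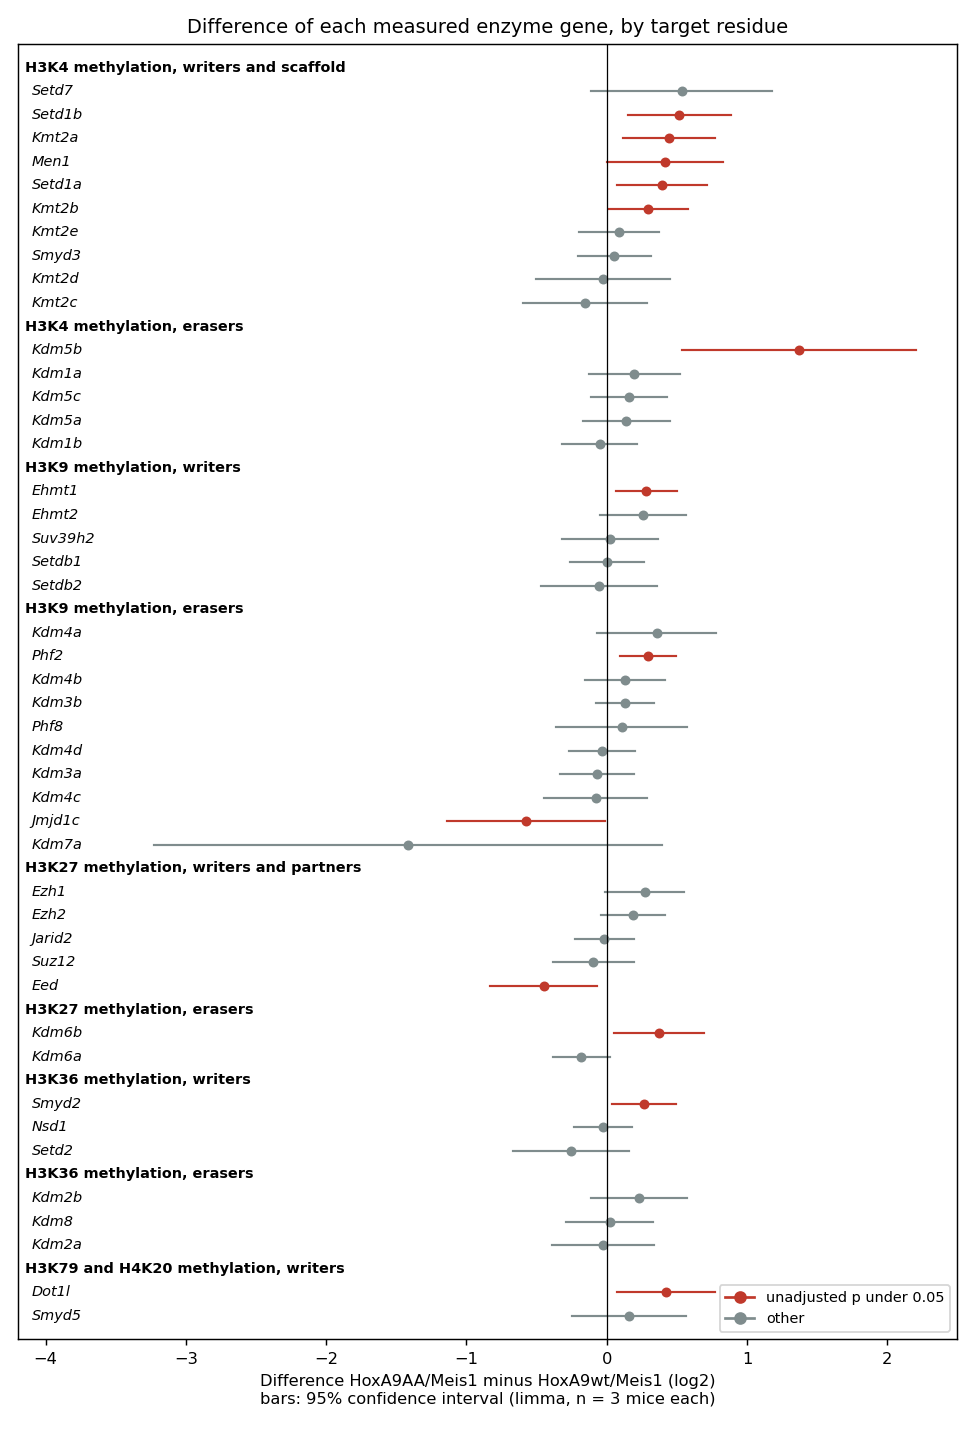
Difference HoxA9AA/Meis1 minus HoxA9wt/Meis1 (horizontal axis, log2) for each of the 45 measured genes, in blocks by target residue and role, with points for the difference and bars for its 95% confidence interval (limma, 3 mice per group). The 13 genes with an unadjusted p under 0.05 are red, Kdm5b lies farthest right at 1.37 and Kdm7a farthest left at -1.42 with a wide interval.

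Among the genes that write H3K4 methylation, 8 of 10 had a higher mean in HoxA9AA/Meis1 marrow. Over all genes the share was 52.7%, and 5999 of the 10624 brighter genes had a higher mean. An unadjusted p under 0.05 was found for 5, all 5 higher, against 6.74% of all genes and 10.6% of the brighter genes. The 5 were Kmt2a, Kmt2b, Setd1a, Setd1b and Men1. Kmt2a, Kmt2b and Men1 belong to the complexes that menin joins, and Setd1a and Setd1b to the SETD1 complexes that place most promoter trimethylation. Kmt2c and Kmt2d, of the enhancer complexes, are not among the 5. For Kmt2d this holds for the brighter probe set, while its second probe set differed by 0.44 without overlap. The median difference of the 10 genes was 0.35. Setd1b measured 8.44, 7.91 and 8.35 in HoxA9AA replicates 1 to 3, against 7.73, 7.79 and 7.63 in HoxA9wt replicates 1 to 3. All 3 HoxA9AA mice were higher, by 0.52 ± 0.15 on average (SE; limma, adjusted p = 0.731), and its second probe set differed by 0.50. Kmt2a, which encodes the founding enzyme of the family and is the gene broken in KMT2A-rearranged human leukaemia, measured 9.95, 9.55 and 9.57 in HoxA9AA mice and 9.15, 9.37 and 9.22 in HoxA9wt mice. The groups did not overlap, and replicate 1 stood above the other HoxA9AA mice. The difference was 0.44 ± 0.14 (SE; limma, adjusted p = 0.731). Its closest relative Kmt2b measured 8.12, 7.82 and 8.10 in HoxA9AA mice, against 7.60, 7.75 and 7.80 in HoxA9wt mice, a difference of 0.30 in which the nearest mice were 0.02 apart.

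Setd1a measured 8.32, 8.40 and 8.76 in HoxA9AA mice and 8.05, 8.07 and 8.18 in HoxA9wt mice, a difference of 0.39 with replicate 3 highest. Men1, which encodes menin, the scaffold that ties KMT2A to LEDGF and to HOX gene chromatin, measured 8.52, 8.29 and 8.92 in HoxA9AA mice and 8.14, 8.30 and 8.04 in HoxA9wt mice. Its difference was 0.42, and the groups touched, since HoxA9AA replicate 2 lay 0.01 below HoxA9wt replicate 2. Setd7, a monomethyltransferase with many non-histone targets, had the largest mean difference of the H3K4 writers, 0.53, but its groups overlapped, with 8.25, 8.48 and 9.20 in HoxA9AA mice and 8.36, 8.17 and 7.80 in HoxA9wt mice (chosen for mention after its values were seen). The enhancer methyltransferase genes Kmt2c and Kmt2d differed by -0.15 and -0.03. For Kmt2d the second probe set differed by 0.44, so its probe sets disagreed in sign. That probe set measured 8.92, 8.31 and 8.67 in HoxA9AA mice and 8.22, 8.20 and 8.16 in HoxA9wt mice, without overlap. Kmt2e, whose protein binds methylated H3K4 and has little methyltransferase activity of its own, and Smyd3 differed by 0.09 and 0.05.

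Kdm5b, which removes the di- and trimethyl marks from H3K4, had the largest positive difference of the family. It measured 8.66, 7.30 and 8.36 in HoxA9AA replicates 1, 2 and 3, against 6.96, 6.53 and 6.72 in HoxA9wt replicates 1, 2 and 3. All 3 HoxA9AA mice were above all 3 HoxA9wt mice, and replicate 2 lay 0.34 above the highest HoxA9wt mouse while replicates 1 and 3 lay far above it. The difference was 1.37 ± 0.35 (SE), or 2.58-fold with a 95% confidence interval of 1.45 to 4.60, and the limma adjusted p was 0.731. Without HoxA9AA replicate 2, the array nearest to the HoxA9wt arrays, the difference was 1.77 with an adjusted p of 0.0446, and over all settings tried it ran from 1.09 to 1.77 with adjusted p from 0.0446 to 0.998. The other H3K4 demethylase genes differed much less. Kdm5a and Kdm5c, its closest relatives, differed by 0.14 and 0.16, Kdm1a, which encodes LSD1, a target of differentiation therapy in leukaemia, by 0.20, and Kdm1b by -0.05, and the groups of all 4 overlapped.

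**Figure D2:**
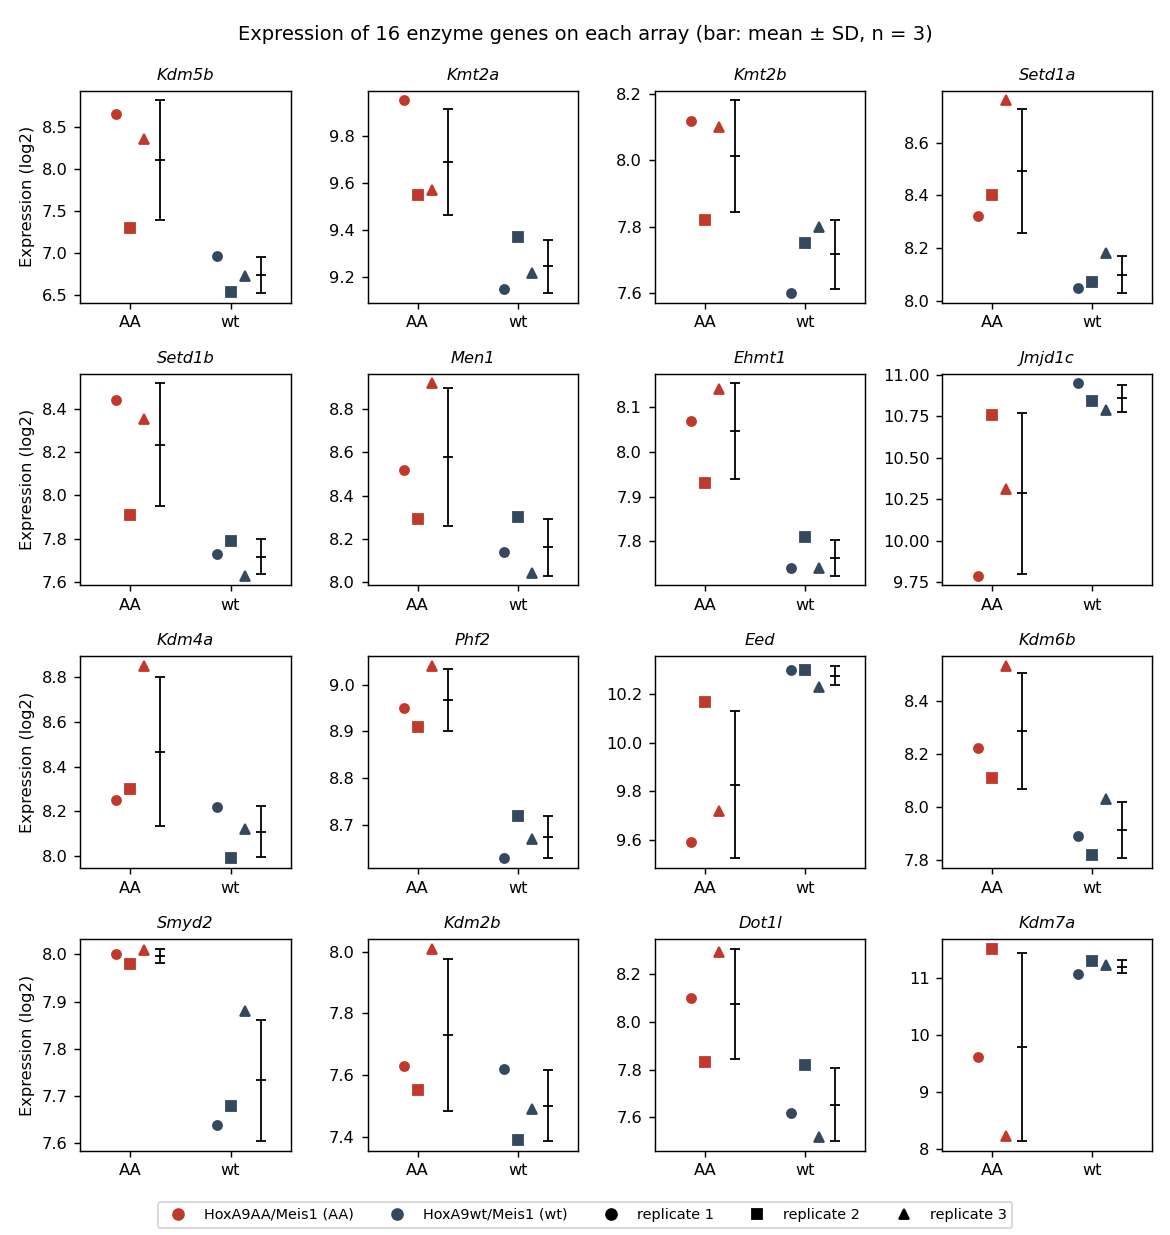
Expression values (vertical axis, log2; scales differ between panels) of 16 genes on each of the 6 arrays, with HoxA9AA/Meis1 left and HoxA9wt/Meis1 right; each symbol is 1 mouse, and bars give mean ± SD per group (n = 3). In Kdm5b all 3 HoxA9AA mice (7.30 to 8.66) lie above the HoxA9wt mice (6.53 to 6.96), and in Kdm7a HoxA9AA replicate 2 (11.52) lies with the HoxA9wt mice (11.08 to 11.30).

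H3K9 methyltransferase genes were nearly level between the groups, except for the pair that forms the euchromatic G9a and GLP enzyme. Ehmt1, which encodes GLP, measured 8.07, 7.93 and 8.14 in HoxA9AA mice and 7.74, 7.81 and 7.74 in HoxA9wt mice, a difference of 0.28 ± 0.09 (SE; limma, adjusted p = 0.731) without overlap. Ehmt2, which encodes G9a, differed by 0.26 with overlapping groups. Suv39h2, Setdb1 and Setdb2, the enzymes of constitutive heterochromatin and retroelement silencing and a relative, differed by 0.02, 0.00 and -0.05, with overlapping groups.

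The 10 H3K9 demethylase genes went both ways, 5 higher and 5 lower, and held the largest negative differences of the family. Jmjd1c, a JmjC protein reported to sustain leukaemia growth and self-renewal, measured 9.79, 10.76 and 10.31 in HoxA9AA mice and 10.95, 10.84 and 10.79 in HoxA9wt mice. The difference was -0.57 ± 0.24 (SE; limma, adjusted p = 0.731). All 3 HoxA9AA mice were lower, but replicate 2 by only 0.03 from the nearest HoxA9wt mouse, and the second probe set of the gene differed by -0.27. Kdm7a, which demethylates H3K9 and H3K27, measured 9.61, 11.52 and 8.23 in HoxA9AA replicates 1, 2 and 3, against 11.08, 11.30 and 11.23 in HoxA9wt mice. Replicates 1 and 3 were low and replicate 2 was the highest of the 6 arrays, so the difference of -1.42 ± 0.75 had an interval that includes 0 (limma, adjusted p = 0.763). A second probe set gave 9.43, 11.07 and 7.83 in HoxA9AA mice and 10.68, 11.02 and 11.04 in HoxA9wt mice, the same pattern. Kdm7a was chosen for mention after its values were seen.

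In the other direction, Phf2, a JmjC demethylase that works with a DNA-binding partner, measured 8.95, 8.91 and 9.04 in HoxA9AA mice and 8.63, 8.72 and 8.67 in HoxA9wt mice. Its 0.29 ± 0.08 (SE; limma, adjusted p = 0.731) came with tight groups and a gap of 0.19. Kdm4a, which acts on H3K9 and H3K36, measured 8.25, 8.30 and 8.85 in HoxA9AA mice and 8.22, 7.99 and 8.12 in HoxA9wt mice, a difference of 0.36 that rests largely on replicate 3. Kdm3b differed by 0.13, with the groups 0.02 apart. Kdm4b and Phf8 differed by 0.13 and 0.11, and Kdm3a, Kdm4c and Kdm4d by -0.07, -0.08 and -0.03, all with overlapping groups.

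The H3K27 genes lay on both sides, and within Polycomb repressive complex 2 (PRC2), which writes this mark, Eed was lower and the enzyme genes were slightly higher. Eed, the subunit that reads the trimethyl mark and stimulates the enzyme, measured 9.59, 10.17 and 9.72 in HoxA9AA mice and 10.30, 10.30 and 10.23 in HoxA9wt mice. All 3 HoxA9AA mice were lower, by 0.06 at the nearest. The difference was -0.45 ± 0.16 (SE; limma, adjusted p = 0.731), and a second, dim probe set differed by -0.17. The 2 catalytic subunit genes were slightly higher, Ezh1 by 0.27 and Ezh2 by 0.19, without overlap but with gaps of 0.05 and 0.02. Suz12 and the accessory subunit gene Jarid2 differed by -0.10 and -0.02. Of the erasers, Kdm6b measured 8.22, 8.11 and 8.53 in HoxA9AA mice, against 7.89, 7.82 and 8.03 in HoxA9wt mice, a difference of 0.37 ± 0.13 (SE; limma, adjusted p = 0.731) without overlap. Kdm6a, a tumour suppressor gene in leukaemia on the X chromosome, lay the other way, with 8.66, 8.77 and 8.70 in HoxA9AA mice and 8.96, 8.81 and 8.90 in HoxA9wt mice, a difference of -0.18 and a gap of 0.04.

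Kdm6a and Kdm5c have relatives on the Y chromosome, Uty and Kdm5d, which were uneven between mice. Uty measured 4.79, 8.44 and 7.36 in HoxA9AA replicates 1, 2 and 3 and 8.90, 8.47 and 8.38 in HoxA9wt mice. Kdm5d measured 6.48, 9.18 and 8.59 in HoxA9AA mice and 8.98, 8.77 and 8.84 in HoxA9wt mice. Replicate 1 was thus low in both, at the background level for Uty. The X-linked Kdm5c measured 8.33, 8.16 and 8.49 in HoxA9AA mice and 8.14, 8.27 and 8.10 in HoxA9wt mice, so that replicate 1 lay between the other HoxA9AA mice for Kdm5c, and for Kdm6a it was the lowest of 3 close values.

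For H3K36, 3 writers and 3 erasers were measured, and for H3K79 and H4K20, 2 writers. Of these genes, Smyd2 and Dot1l had an unadjusted p under 0.05 (limma), both higher. The share with such a p was 6.74% over all genes and 10.6% over the brighter genes. Smyd2, which methylates H3K36 and non-histone proteins such as p53, measured 8.0, 7.98 and 8.01 in HoxA9AA mice and 7.64, 7.68 and 7.88 in HoxA9wt mice, a difference of 0.26 ± 0.10 (SE; limma, adjusted p = 0.731) in which the HoxA9AA mice were nearly identical. Dot1l, the H3K79 methyltransferase on which KMT2A-rearranged leukaemia depends, measured 8.10, 7.83 and 8.29 in HoxA9AA mice and 7.62, 7.82 and 7.52 in HoxA9wt mice. The difference was 0.42 ± 0.15 (SE; limma, adjusted p = 0.731), and the nearest mice were 0.01 apart. Setd2, which places H3K36 trimethylation behind RNA polymerase II, differed by -0.25 (-0.47 for its second probe set) with overlapping groups. Nsd1 differed by -0.03. Among the erasers Kdm2b, also a subunit of a variant Polycomb complex, measured 7.63, 7.55 and 8.01 in HoxA9AA mice and 7.62, 7.39 and 7.49 in HoxA9wt mice, an overlapping difference of 0.23. Kdm2a and Kdm8 differed by -0.03 and 0.02, and Smyd5, an H4K20 methyltransferase, by 0.16.

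Of 25 writers and partners 16 had a higher mean and 9 an unadjusted p under 0.05, 8 of them higher, with a median difference of 0.16. Of 20 erasers 12 had a higher mean and 4 an unadjusted p under 0.05, 3 of them higher, with a median of 0.12. Over all genes 52.7% had a higher mean, as had 5999 of the 10624 brighter genes, and the shares of both roles are close to these. An unadjusted p under 0.05 was found for 6.74% of all genes (10.6% of the brighter genes). Whether the roles differ from each other was not tested.

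The HoxA9AA mice deviated to different degrees. HoxA9AA replicate 2, although close to the HoxA9wt arrays over all genes, lay above all 3 HoxA9wt mice in 22 of 45 members (48.9%, against 21.6% of all genes) and below them in 4 (8.89%, against 26.4%). Replicate 1 lay above in 23 (51.1%, against 40.2%) and below in 12 (26.7%, against 26.4%). Replicate 3 lay above in 25 (55.6%, against 33.2%) and below in 14 (31.1%, against 29.3%). The median deviation from the HoxA9wt mean over the members was 0.09, 0.10 and 0.19 in HoxA9AA replicates 1, 2 and 3, against 0.05, -0.02 and 0.00 over all genes. Among the brighter genes, to which 44 of the 45 members belong, the shares above were 39.3%, 25.1% and 46.8% and the shares below 35.8%, 21.7% and 25.7% in HoxA9AA replicates 1, 2 and 3. The members' share above was larger than either background in each HoxA9AA mouse, by least in replicate 3 when set against the brighter genes. Their share below was smaller than both backgrounds in replicate 2, and in replicate 1 smaller than that of the brighter genes only. In replicate 3 it was larger than both, at 31.1% against 29.3% of all genes and 25.7% of the brighter genes. Spread followed the series as a whole, with a larger SD in HoxA9AA than in HoxA9wt mice in 39 of 45 members (86.7%), against 70.8% of all genes and 78.7% of the brighter ones. The median SD of the members was 0.22 in HoxA9AA and 0.10 in HoxA9wt mice.

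**Figure D3:**
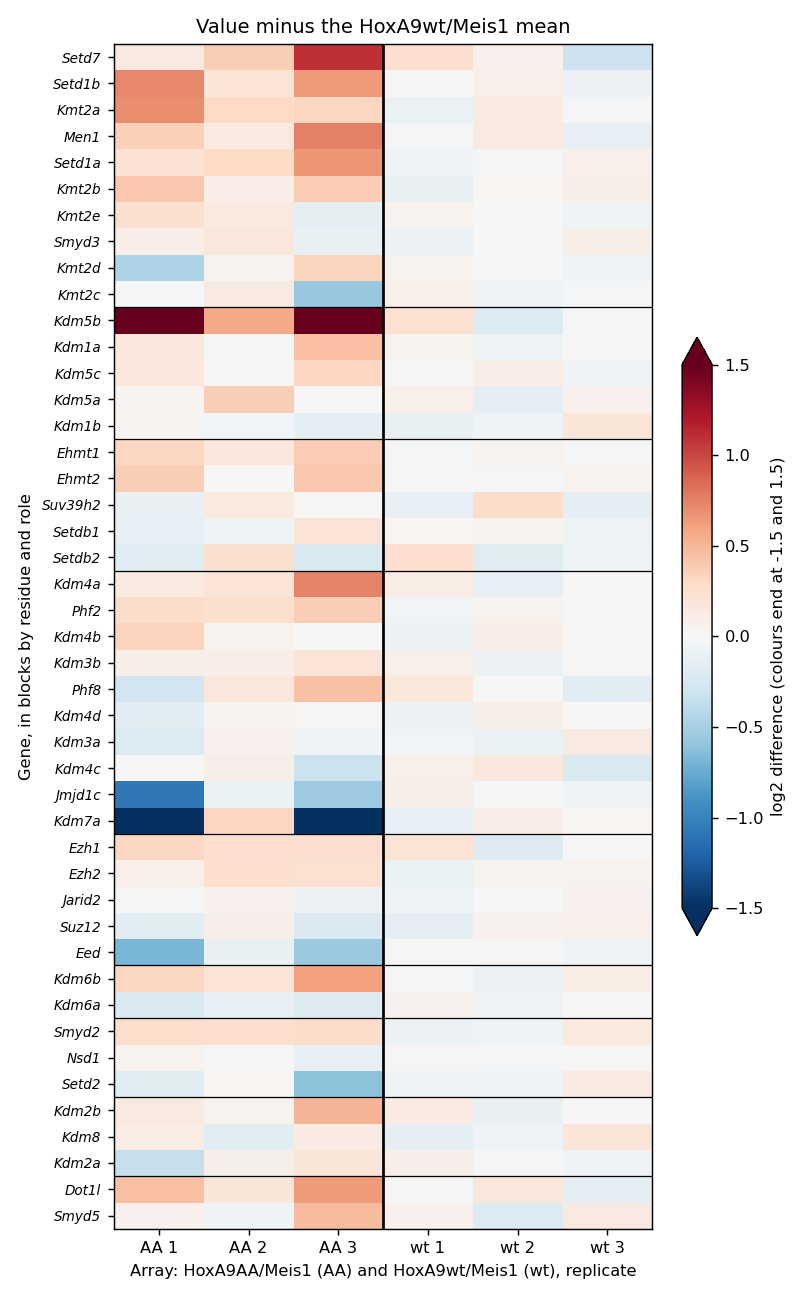
Value on each of the 6 arrays minus the HoxA9wt/Meis1 mean of the gene (colour, log2) for the 45 genes, in blocks by residue and role, with the HoxA9AA/Meis1 arrays left of the line and the HoxA9wt/Meis1 arrays right of it. Kdm5b is red in all 3 HoxA9AA arrays and palest in replicate 2, and Jmjd1c, Kdm7a and Eed are blue in replicates 1 and 3.

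Cell markers moved with some of these genes, and their part in the differences was not tested. Of 13 measured monocyte markers 12 had a lower mean in HoxA9AA/Meis1. Averaged over the list, they stood at -1.34, 0.01 and -1.27 relative to the HoxA9wt mean in HoxA9AA replicates 1, 2 and 3, against -0.22 to 0.11 in HoxA9wt mice. Jmjd1c, Kdm7a and Eed were lowest in the same 2 mice. Stem and progenitor markers, 8 measured and 6 of them higher, stood at 0.23, 0.05 and 0.94 in HoxA9AA mice and at -0.38 to 0.19 in HoxA9wt mice. This list includes Meis1, which was introduced in both groups and stood at -1.11 in replicate 1 and 0.97 in replicate 3. Its members were not alike: Erg, an ETS factor gene, measured 9.60, 8.74 and 9.43 in HoxA9AA mice and 8.42, 8.23 and 8.31 in HoxA9wt mice, while the receptor gene Flt3 measured 6.92, 10.13 and 10.85 in HoxA9AA mice and 10.21, 9.87 and 10.69 in HoxA9wt mice (both chosen after their values were seen). The 6 primary granule markers stood at 1.41, 0.03 and 0.23 in HoxA9AA mice and at -0.31 to 0.32 in HoxA9wt mice. Of 17 proliferation markers 13 were higher, at -0.14, 0.06 and 0.38 in HoxA9AA mice and -0.24 to 0.19 in HoxA9wt mice, with overlapping groups. Late granule markers ranged from -0.68 to 1.05 in HoxA9AA and from -1.47 to 1.04 in HoxA9wt mice. Erythroid markers ranged from -0.68 to -0.55 in HoxA9AA and from -0.57 to 0.85 in HoxA9wt mice. Only HoxA9wt replicate 2 stood high, at 0.85, which also raises the HoxA9wt mean, against -0.57 and -0.28 in HoxA9wt replicates 1 and 3. Of the 9 erythroid markers 6 lay more than 1 above background on every array. B cell markers ranged from 0.20 to 0.34 in HoxA9AA and from -0.06 to 0.09 in HoxA9wt mice. Their median over the list was 0.27, 0.27 and -0.05 in HoxA9AA replicates 1, 2 and 3. In replicate 3 the mean rests on Cd79b and Vpreb3, which stood 1.39 and 0.47 above the HoxA9wt mean. T and NK cell markers ranged from 0.05 to 0.59 in HoxA9AA and from -0.11 to 0.21 in HoxA9wt mice. In HoxA9AA mice this mean rests on Nkg7, which stood 3.83 and 2.90 above the HoxA9wt mean in replicates 1 and 3, while the median over the list was 0.17, -0.005 and -0.033 in replicates 1, 2 and 3. Megakaryocyte markers ranged from -0.36 to -0.16 in HoxA9AA and from -0.22 to 0.31 in HoxA9wt mice. Of the 7 B cell markers 4, of the 8 T and NK cell markers 4 and of the 3 megakaryocyte markers 2 lay more than 1 above background on every array. The introduced genes Hoxa9 and Meis1 differed by 0.40 and -0.08, with overlapping groups.

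**Figure D4:**
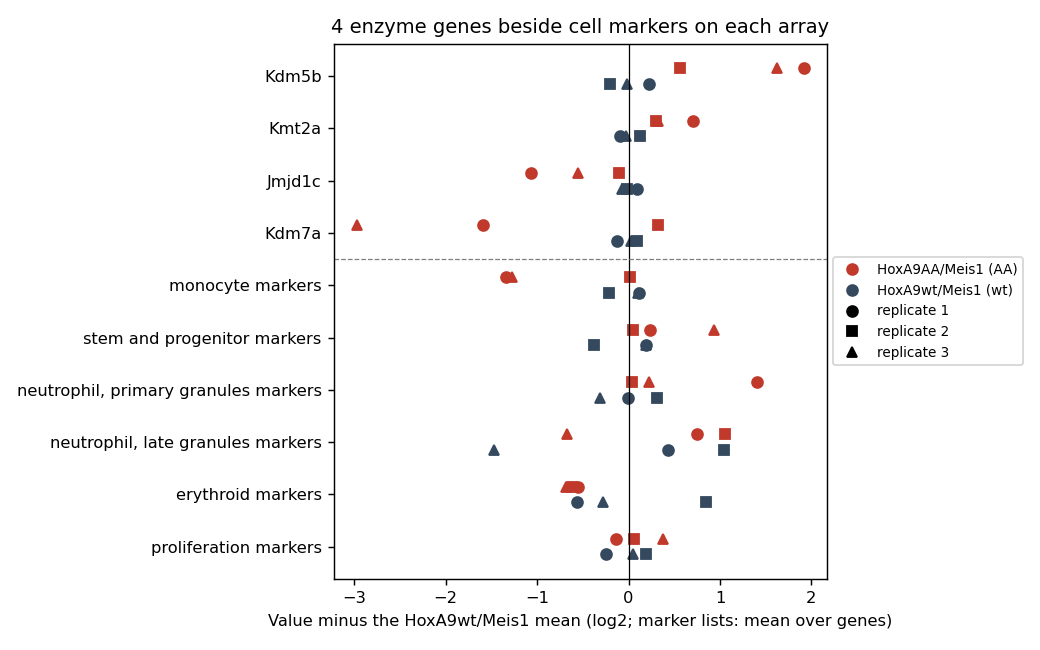
Value minus the HoxA9wt/Meis1 mean (horizontal axis, log2) on each of the 6 arrays for 4 enzyme genes and, under the dashed line, for the mean of 6 marker lists; red symbols are HoxA9AA/Meis1 and dark symbols HoxA9wt/Meis1 mice. In Jmjd1c, Kdm7a and the monocyte markers (-1.34 and -1.27), HoxA9AA replicates 1 and 3 lie low, and Kdm5b is highest in the same 2 mice.

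Other genes of histone lysine methylation, 79 measured of 82 listed, also leaned towards higher means in HoxA9AA/Meis1. A higher mean was found for 58 of 79, against 52.7% of all genes and 5999 of the 10624 brighter genes. Their median difference was 0.14. By the test, 0 had an adjusted p under 0.05 (limma), and 10 (12.7%, against 6.74% of all genes and 10.6% of the brighter genes) an unadjusted p under 0.05, 9 higher and 1 lower. The groups did not overlap for 17 (21.5%, against 11.4% of all genes and 14.7% of the brighter genes, to which 74 of the 79 belong), all higher. For 8 of these 17 the nearest mice of the groups were less than 0.05 apart. Of 6 silencing partners of the H3K9 enzymes, 3 had an unadjusted p under 0.05. Trim28, the corepressor KAP1 that recruits Setdb1, differed by 0.49, Atf7ip, which stabilises Setdb1, by 0.28, and Wiz, a partner of Ehmt1 and Ehmt2, by 0.26. The CoREST genes Rcor1 and Rcor3, whose proteins hold LSD1 on nucleosomes, differed by 0.39 and 0.28. Among Polycomb repressive complex 1 genes, the H2A-ubiquitin side of the system, Bcorl1 and Cbx2 differed by 0.51 and 0.31 and Phc3 by -0.50. Setd5 and Prdm2, SET domain genes outside the member list, differed by 0.26 and 0.20. None of the 11 COMPASS and menin partners and of the 8 PRC2 partners had an unadjusted p under 0.05, among them Psip1, which encodes LEDGF, with a difference of 0.26. The 8 DOT1L and elongation partners all had a higher mean, with a median of 0.21, and 0 had an unadjusted p under 0.05.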

How the data were processed

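The authors deposited log2 values, made with oligo and RMA per the submitters' processing notes. RMA subtracts background, equalises the arrays by quantiles and condenses probes to probe sets, which narrows differences that affect most genes. Version, build and annotation: not given in the sources used here. Nothing was rescaled for the main comparison. Of 35556 probe sets, 21789 had 1 symbol in the platform annotation, 1621 had several and 12146 were not listed, and the brightest per gene gave 19938 genes. Probe set signals of 6 members with 2 probe sets were also compared.

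Differences were tested in R 4.3.3 with limma 3.58.1 (two-sided, all 6 arrays, eBayes without trend). P-values were adjusted over all genes by Benjamini-Hochberg at 0.05, and the script was tested on simulated data. The labels call the mice biological replicates. Members and lists were chosen with earlier results of these data known, so counts over them are descriptions beside the share of all genes. Values on every array are given for Kdm5b, for members with an unadjusted p under 0.05, for members whose groups do not overlap with a difference of 0.3 or more, and otherwise for the member of a class with the largest difference. Pathway genes with an unadjusted p under 0.05 are named, with Kdm5d and Uty. Array values of Kdm6a and Kdm5c, shown beside their Y-linked relatives, and of Setd7 and Kdm7a fall outside this rule and were chosen after the values were seen. Other settings were a replicate block, each array left out, mean of probe sets, a filter at the array median (6.81), quantile normalization, median centring, trend with robust variance, array weights and no moderation. No background correction other than that of RMA could be tried on summarised values. Promoters were matched by symbol. Figures were drawn with matplotlib 3.10.9.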

Additional observations from a re-analysis of the deposited data

How the results depend on the processing

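All genes had an adjusted p of 0.05 or more in the main comparison and in every other setting except 2: 48 genes passed without HoxA9AA replicate 2 (Kdm5b the 1 member among them, at 1.77) and 1 gene, no member, without HoxA9wt replicate 3, so that leaving out 1 array gave 0 to 48 genes. Kdm5b kept its direction in all settings, with 1.09 to 1.77 when 1 array was left out. The count of 13 members with an unadjusted p under 0.05 was 6 with the replicate block, 7 with trend and robust variance, 8 without moderation and 4 to 15 without 1 array. Over all genes the share with such a p ran from 3.05% to 14.1% without 1 array and was 5.6%, 5.91% and 4.8% in those 3 settings. The member median of 0.13 ran from 0.075 to 0.155 without 1 array and from 0.112 to 0.134 elsewhere. Members with groups apart, 17 in the main comparison, were 13 after quantile normalization (13.2% of all genes), 12 after median centring (12.2%), and 18 to 25 with 1 array left out (16.9% to 28.3%). None of the members named with values on every array under the rule changed direction in any setting. Kdm8, Kdm2a, Suv39h2, Setdb2, Kmt2d and Jarid2, all with differences under 0.06 in size, did so in 3 or more of the 14 settings. Setdb1, at 0.00 in the main comparison and so without a direction there, ran from -0.095 to 0.06. The replicate numbers did not pair the mice: deviations of same-numbered mice correlated at -0.208, -0.103 and -0.013. With 3 mice per group and a larger spread in the HoxA9AA mice, differences of the size seen in most members could not be told from the spread between mice.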
